A study of Homo sapiens with 17 samples.

Results

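The genes described here are 42 human genes of the lysosome and of autophagy, in 5 classes: 3 transcription factors of the MiT/TFE family, 8 membrane and lipid transfer proteins, 15 hydrolases and their activators, 7 proteins of the proton pump, and autophagy genes. They were chosen by name for their function, with earlier results of these data known. A gene entered where a probe set of the array carried its symbol and no other. Of the 42 genes 41 were measured, among 17958 genes in all. BECN1 was not, because its probe sets carried several symbols. Where a gene had several probe sets, as NEU1 did, the brightest was kept.

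Expression was measured on 17 arrays of A549 and H2122, which are human lung adenocarcinoma cell lines without functional LKB1. LKB1, encoded by STK11, is a tumour suppressor kinase that activates AMPK and its relatives. The study was made to set the expression changes brought about by LKB1 in culture against those that go with LKB1 loss in resected tumours, and the tumours were not analysed here. Each line carried 1 of 3 pBABE retroviruses: wild-type LKB1 (3 arrays in A549, 3 in H2122), the kinase-dead mutant LKB1 K78I (3 and 3), or the empty vector (3 and 2). The virus was integrated, so LKB1 came from a retroviral promoter and not from its own. Cells of every group, empty vector included, had been selected in 1 µg/mL puromycin for 2 weeks, were kept in 5% serum and were growing logarithmically at harvest, and 130 ng of total RNA went onto each array. The labels do not say that replicates were separate cultures, so p-values measure the spread between arrays only, which may be technical.

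The lysosome is an acidic compartment in which hydrolases break down proteins, lipids and sugars brought in by endocytosis or by autophagy, the delivery of a cell's own components in a double-membraned vesicle. TFEB, TFE3 and MITF bind a short DNA element, the CLEAR element, before many lysosomal genes. mTORC1 at the lysosome surface keeps these factors out of the nucleus when nutrients are plentiful. AMPK, a substrate of LKB1, restrains mTORC1 and phosphorylates ULK1, the kinase that starts autophagy.

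The core of the CLEAR element reads TCACGTG. It was searched on both strands of the window from 250 bases before to 50 bases after each gene's start in the RefSeq table (GRCh38.p14), which held 29 of the 42 genes. MITF has several alternative starts, and only the start in that table was read. Of these 29 windows 8 held TCACGTG, against 4.83% of the windows of 13864 tested genes. The CLEAR element is known from lysosomal genes and these genes were chosen for that function, so this share is not an independent result. The sequences that follow show, first, the last 120 bases before the start of 4 genes that rose with LKB1 in A549 and whose windows hold no TCACGTG, and then the matches before the start of 8 genes that did not pass the test in either line. Capitals mark TCACGTG on either strand and, in CTSA, also TCATGTG on the opposite strand. All are written 5′ to 3′ on the strand of the gene.
NPC2: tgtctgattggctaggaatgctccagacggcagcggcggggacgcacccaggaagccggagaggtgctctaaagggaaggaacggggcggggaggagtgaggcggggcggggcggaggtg
CTSH: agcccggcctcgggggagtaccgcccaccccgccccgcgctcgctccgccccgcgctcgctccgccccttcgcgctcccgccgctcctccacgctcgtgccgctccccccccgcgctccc
WIPI1: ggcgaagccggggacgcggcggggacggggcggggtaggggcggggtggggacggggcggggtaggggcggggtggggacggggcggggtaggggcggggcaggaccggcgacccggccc
MITF: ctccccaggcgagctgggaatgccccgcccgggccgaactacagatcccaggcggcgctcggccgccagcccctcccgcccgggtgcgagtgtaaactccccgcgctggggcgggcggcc
LAMP1: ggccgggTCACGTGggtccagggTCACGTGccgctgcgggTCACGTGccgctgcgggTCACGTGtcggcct
GAA: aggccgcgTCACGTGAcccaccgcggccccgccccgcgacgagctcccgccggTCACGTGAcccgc
MCOLN1: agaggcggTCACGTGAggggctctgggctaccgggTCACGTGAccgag
CTSA: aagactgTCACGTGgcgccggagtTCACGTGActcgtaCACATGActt
ATP6V0D1: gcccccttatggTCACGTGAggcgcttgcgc
CTSD: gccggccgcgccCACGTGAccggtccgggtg
CTSF: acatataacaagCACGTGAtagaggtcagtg
NEU1: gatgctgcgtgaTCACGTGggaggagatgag

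In GRCh38.p14 the NPC2 stretch lies at chr14:74493513-74493632 on the minus strand and that of CTSH at chr15:78945047-78945166 on the minus strand. The WIPI1 stretch is chr17:68457497-68457616, minus strand, and that of MITF chr3:69739344-69739463, plus strand. The stretches with matches are chr13:113297039-113297109 (LAMP1), chr17:80101496-80101561 (GAA), chr19:7522574-7522621 (MCOLN1) and chr20:45891285-45891332 (CTSA), all on the plus strand. Those on the minus strand are chr16:67481199-67481229 (ATP6V0D1), chr11:1763956-1763986 (CTSD), chr11:66568711-66568741 (CTSF) and chr6:31862930-31862960 (NEU1). Every printed stretch lies upstream of the start, and genes such as LAMP1 hold further matches in the window that are not printed.

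The 3 markers of the gene group were measured on all arrays, and the epithelial keratins KRT7, KRT8 and KRT18 lay between 11.3 and 13.1 on the log2 scale in both lines. These keratins are 3 of 8 epithelial markers. The mean level of all 8 was lower, at 8.40 to 9.10 in A549 and 10.86 to 11.13 in H2122. Markers of leukocytes, of endothelium and fibroblasts, and of melanocytes had mean levels of 3.66 to 4.42, in the lower part of the range of all genes. STK11 went against the label on 2 A549 arrays: the level was 7.14 on K78I replicate 2, while its fellow K78I arrays had 10.54 and 10.42, and 10.52 on pBABE replicate 3, while its fellows had 6.88 and 7.38. In H2122 STK11 stood at 11.2 to 11.4 with LKB1 and with K78I and at 6.22 and 6.33 with pBABE, but another label field of 3 H2122 arrays (LKB1 replicate 3, K78I replicate 3 and pBABE replicate 2) names a different construct than the title. That field names pBABE replicate 2, where STK11 was low, as LKB1, and K78I replicate 3, where STK11 was high, as pBABE. It names LKB1 replicate 3 as K78I, and STK11 was high with both of these constructs. On 3 arrays the mean of 27 cell cycle genes lay furthest below the mean of its line, at -0.91 log2 units on A549 K78I replicate 2, -0.36 on A549 pBABE replicate 1 and -1.40 on H2122 pBABE replicate 2, while the other arrays lay between -0.08 and 0.33. These 3 control arrays are called the arrays with low cell cycle genes, a choice made from the values with no fixed limit. Where they are left out, replicate 1 is the only pBABE array of H2122. In bulk RNA of a culture, fewer cells of a kind and less RNA per cell cannot be told apart.

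LKB1 was compared in each line with the mean of its control groups, K78I and pBABE, which had equal weight. A gene was called where limma's adjusted p, by Benjamini-Hochberg over all 17958 genes, was under 0.05. In A549, 7 of the 41 genes rose and 0 fell, or 17.1%, against 8.44% of all genes called (5.49% higher, 2.95% lower). Those 7 were MITF, LAMP2, LAMP3, NPC2, CTSH, ATP6V1H and WIPI1. In H2122, 7 rose and 0 fell, against 7.28% of all genes called (4.99% higher, 2.29% lower), and these were LAMP2, LAMP3, NPC2, CTSB, CTSH, CTSS and CTSZ. LAMP2, LAMP3, NPC2 and CTSH are on both lists. The median log2 difference over the 41 genes was 0.08 in A549, with -0.02 over all genes, and 0.15 in H2122, with -0.04 over all genes. Most of the 41 genes passed the test in neither line. The genes were chosen with earlier results of these data known. Their shares of calls above those of all genes are therefore not an independent result. With the 3 H2122 arrays grouped by the conflicting label field, 0 of the 41 genes were called in H2122, and without these arrays CTSB, CTSS, NPC2 and WIPI1 were.

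**Figure D1:**
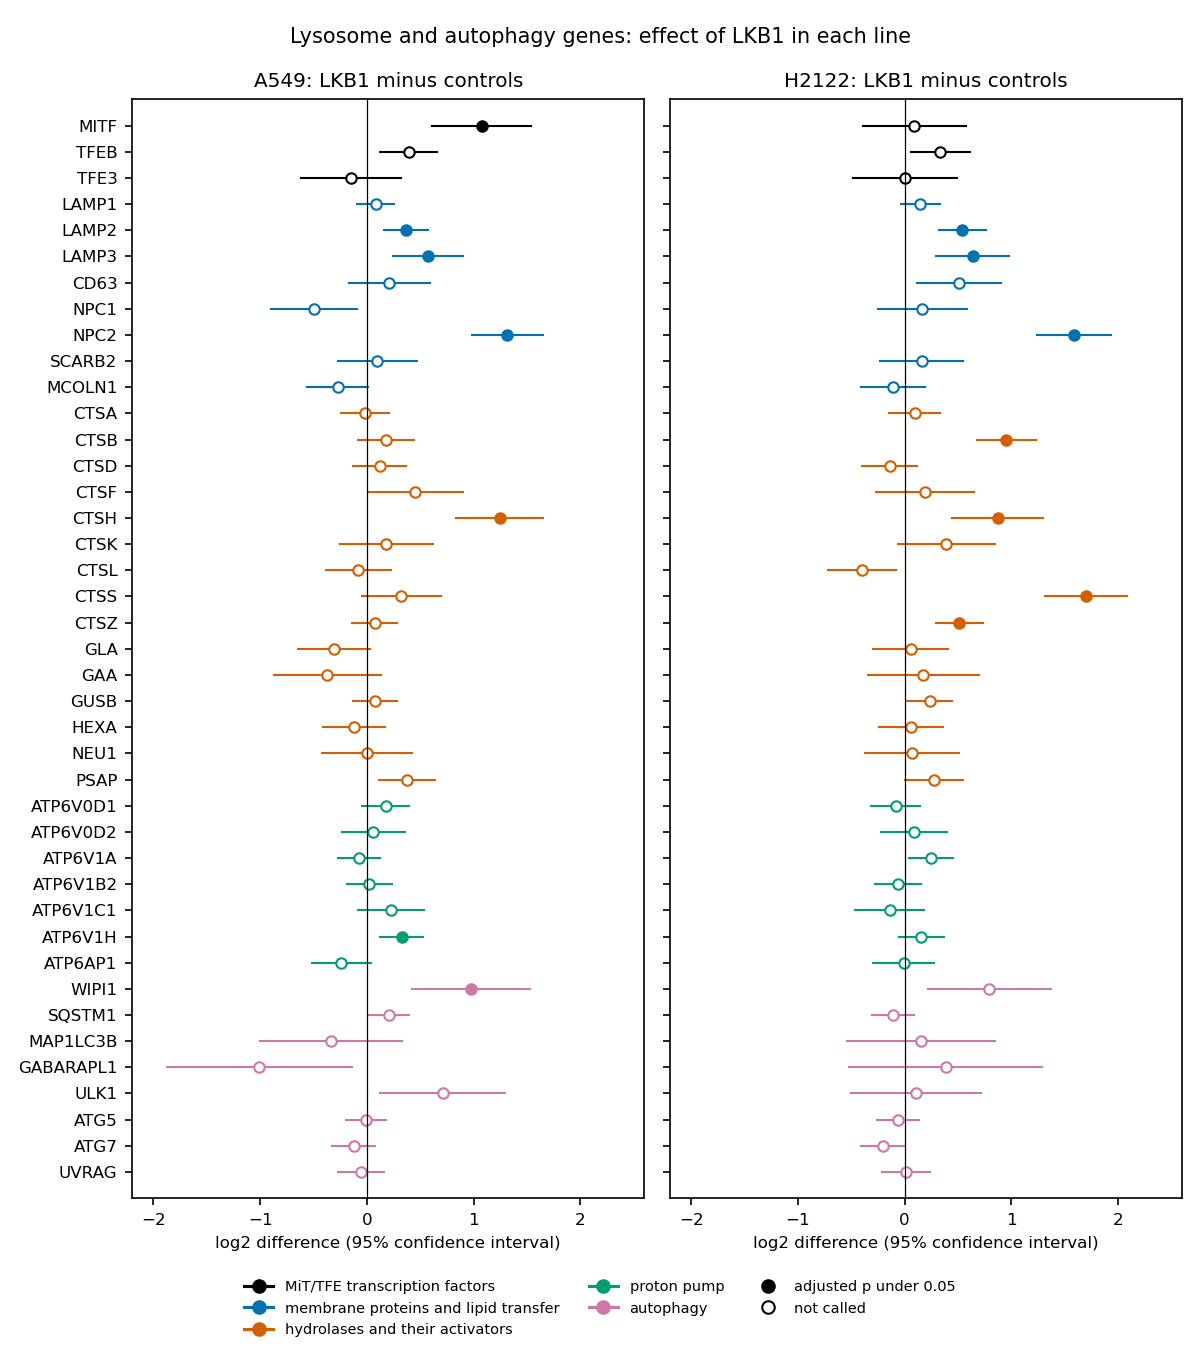
Log2 difference of LKB1 minus the mean of the controls for the 41 measured genes, in A549 (left) and H2122 (right), with 95% confidence intervals from the limma fit and colour by class. Filled points passed adjusted p 0.05: there are 7 in each line, all to the right of 0, with NPC2 at 1.32 and 1.59.

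Of the 3 factors that switch on lysosomal genes 1 rose in A549 and 0 in H2122. MITF, the family member best known from melanocytes, had log2 levels of 7.18, 7.18 and 7.15 on the LKB1 arrays of A549, 6.21, 6.52 and 6.18 with K78I and 6.06, 5.43 and 6.19 with pBABE. Every LKB1 array lay above every control array. MITF rose by 1.08 (SE 0.22, limma adjusted p = 0.0058), which is 2.11-fold. The difference was 1.28 against pBABE (limma adjusted p = 0.00659) and 0.87 against K78I (limma adjusted p = 0.0604).

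In H2122 the MITF levels were 6.53, 5.34 and 6.36 with LKB1, 6.19, 6.20 and 6.04 with K78I, and 5.90 and 5.75 with pBABE. LKB1 replicate 2 was the lowest array of the line and the other LKB1 arrays the highest, so the groups overlapped. The log2 difference was 0.09 (SE 0.23, limma adjusted p = 0.904). The A549 effect minus the H2122 effect was 0.99, which did not pass (limma adjusted p = 0.117). The melanocyte marker list had a mean level of 3.98 to 4.10 on the LKB1 arrays of A549, 3.99 to 4.11 with K78I and 4.07 to 4.12 with pBABE. Of its 9 measured genes 0 were called there, and 0 passed at an unadjusted p under 0.05.

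TFEB, the factor most closely tied to lysosome formation, had levels of 6.01, 5.94 and 5.99 with LKB1 in A549, 5.79, 5.45 and 5.81 with K78I, and 5.34, 5.45 and 5.68 with pBABE. The LKB1 arrays were the highest, but the difference of 0.39 missed the threshold (SE 0.12, limma adjusted p = 0.0673). In H2122 TFEB stood at 5.81, 6.34 and 6.23 with LKB1, 5.67, 5.65 and 5.69 with K78I, and 5.79 and 6.04 with pBABE, a difference of 0.34 with overlapping arrays (SE 0.13, limma adjusted p = 0.153). The fit sees the messenger RNA of these factors and not where the protein lies in the cell.

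TFE3 stood at 9.03, 9.22 and 9.13 with LKB1 in A549, at 9.02, 10.19 and 9.16 with K78I and at 9.53, 8.85 and 8.88 with pBABE. Its highest values were on the 2 A549 arrays with low cell cycle genes. The log2 difference was -0.15 with all arrays (SE 0.22, limma adjusted p = 0.773) and 0.14 without the 3 arrays. In H2122 TFE3 had 8.38, 8.49 and 8.71 with LKB1, 8.47, 8.50 and 8.47 with K78I, and 8.32 and 8.80 with pBABE, and the groups overlapped (limma adjusted p = 0.995).

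Among membrane and lipid transfer proteins the largest change in both lines was that of NPC2, which is a small soluble protein that picks up cholesterol inside the lysosome and hands it to NPC1, a sterol transporter of the membrane. In A549 NPC2 stood at 10.99, 11.01 and 11.00 with LKB1, 9.82, 9.15 and 9.96 with K78I, and 9.65, 9.65 and 9.88 with pBABE. In H2122 it stood at 11.74, 12.04 and 11.88 with LKB1, 10.61, 10.80 and 10.28 with K78I, and 10.02 and 10.03 with pBABE. All LKB1 arrays were above all control arrays of their line, with a wide gap between them. NPC2 rose by 1.32 in A549 (SE 0.16, limma adjusted p = 9.49e-05), or 2.49-fold, and by 1.59 in H2122 (SE 0.16, limma adjusted p = 3.14e-05), or 3.01-fold.

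NPC2 also passed against each control. Against K78I the differences were 1.36 in A549 (limma adjusted p = 0.000408) and 1.32 in H2122 (limma adjusted p = 0.000784), and against pBABE 1.28 (limma adjusted p = 0.00063) and 1.86 (limma adjusted p = 7.15e-05). Its 3 K78I arrays in H2122 lay above both pBABE arrays, by 0.54 on average, which did not pass (limma adjusted p = 0.643). Without the 3 arrays with low cell cycle genes the A549 difference was 1.17 (limma adjusted p = 9.7e-05). The call in A549 held in all 17 fits that left out 1 array, with a highest limma adjusted p of 0.00128, and in H2122 likewise, with a highest of 0.000443.

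NPC1 was not called. Its A549 levels were 9.09, 9.18 and 9.13 with LKB1, 9.33, 10.42 and 9.40 with K78I, and 9.78, 9.60 and 9.24 with pBABE, and its log2 difference was -0.49 (SE 0.19, limma adjusted p = 0.133), and -0.26 without the 3 arrays with low cell cycle genes (limma adjusted p = 0.112). All LKB1 arrays lay below all controls in A549, the opposite side from NPC2. In H2122 the NPC1 difference was 0.17 (limma adjusted p = 0.747).

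LAMP2, an abundant glycoprotein of the lysosome membrane needed for autophagic vesicles to be cleared, rose in both lines. Its A549 levels were 9.69, 9.51 and 9.61 with LKB1, 9.10, 9.10 and 9.39 with K78I, and 9.36, 9.16 and 9.30 with pBABE. In H2122 they were 9.90, 9.74 and 9.85 with LKB1, 9.23, 9.47 and 9.26 with K78I, and 9.18 and 9.32 with pBABE. No LKB1 array overlapped a control in either line. The increase was 0.37 in A549 (SE 0.10, limma adjusted p = 0.0294), or 1.29-fold, and 0.54 in H2122 (SE 0.10, limma adjusted p = 0.00357), or 1.46-fold. LAMP1, its close relative, stood at differences of 0.08 in A549 and 0.15 in H2122 (limma adjusted p = 0.651 and 0.393).

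LAMP3, a family member known from mature dendritic cells and from type II cells of the lung, had lower levels. In A549 it stood at 5.29, 5.21 and 5.45 with LKB1, 4.36, 5.02 and 4.86 with K78I, and 4.89, 4.34 and 5.01 with pBABE. In H2122 it stood at 5.98, 5.89 and 5.94 with LKB1, 5.40, 5.67 and 5.37 with K78I, and 5.12 and 5.10 with pBABE. The LKB1 arrays were the highest of each line. LAMP3 rose by 0.57 in A549 (SE 0.15, limma adjusted p = 0.0334), or 1.48-fold, and by 0.64 in H2122 (SE 0.16, limma adjusted p = 0.0239), or 1.56-fold. The A549 control levels of 4.34 to 5.02 cannot be told from background, so the A549 difference may not be the full change in RNA.

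Both LAMP calls in A549 depended on which arrays were kept and on the processing. With all A549 arrays kept, median centring ended both (limma adjusted p = 0.0752 for LAMP2 and 0.0685 for LAMP3). So did a fit of each line alone (limma adjusted p = 0.0839 for LAMP2 and 0.128 for LAMP3). LAMP2 in A549 was lost without LKB1 replicate 1, 2 or 3 or pBABE replicate 2, with differences of 0.33 to 0.41 and limma adjusted p of 0.0502 to 0.144. LAMP3 in A549 was lost without each of the same 4 arrays in turn, with differences of 0.47 to 0.62 and limma adjusted p of 0.0567 to 0.169. LAMP3 in H2122 was lost without LKB1 replicate 1, 2 or 3, pBABE replicate 2 or K78I replicate 3, with differences of 0.61 to 0.66 and limma adjusted p of 0.0521 to 0.0988. The LAMP2 call in H2122 held in all 17 such fits, but not without the 3 arrays with conflicting labels. The LAMP2 difference in H2122 was then 0.55, with a single pBABE array left.

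The other membrane proteins were SCARB2, the receptor that carries glucocerebrosidase to the lysosome, the tetraspanin CD63 and the cation channel MCOLN1. CD63 in H2122 stood at 9.55, 9.64 and 9.67 with LKB1, 9.01, 8.98 and 9.01 with K78I, and 8.71 and 9.73 with pBABE. The LKB1 arrays exceeded every control but pBABE replicate 2, an array with low cell cycle genes. The difference was 0.51 with all arrays (SE 0.18, limma adjusted p = 0.124). It was 0.77 without the 3 arrays, where the lower pBABE array stood alone for its group. SCARB2 had differences of 0.10 in A549 and 0.16 in H2122 and did not pass.

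Of the 15 hydrolases and activators 1 rose in A549 and 4 in H2122, against 5.49% and 4.99% of all genes. Those that rose are all cathepsins, the proteases of the lysosome. CTSH, a cysteine protease that trims residues from the end of a protein, was called in both lines. Its A549 levels were 9.21, 8.74 and 9.05 with LKB1, 7.75, 7.25 and 8.33 with K78I, and 7.68, 7.56 and 7.97 with pBABE. In H2122 they were 10.42, 9.997 and 10.20 with LKB1, 9.38, 9.38 and 9.57 with K78I, and 9.06 and 9.39 with pBABE. The LKB1 arrays lay above all controls in each line. CTSH rose by 1.24 in A549 (SE 0.19, limma adjusted p = 0.000819), or 2.37-fold, and by 0.87 in H2122 (SE 0.20, limma adjusted p = 0.0139), or 1.83-fold.

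Against K78I alone CTSH differed by 1.22 in A549 (limma adjusted p = 0.00447) and by 0.76 in H2122 (limma adjusted p = 0.0727). Against pBABE alone it differed by 1.26 (limma adjusted p = 0.00306) and 0.98 (limma adjusted p = 0.0294). The H2122 call was lost without LKB1 replicate 1 (0.76, limma adjusted p = 0.0874) or LKB1 replicate 3 (0.87, limma adjusted p = 0.0569). In A549 it held in all 17 fits that left out 1 array.

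CTSS, a cysteine protease known from antigen-presenting cells, where it processes the invariant chain, had the largest log2 difference of the 41 genes in H2122. Its levels there were 7.14, 6.53 and 6.82 with LKB1, 5.58, 4.90 and 5.81 with K78I, and 4.63 and 5.01 with pBABE. All LKB1 arrays were above all controls, and the increase was 1.70 (SE 0.18, limma adjusted p = 3.78e-05), or 3.26-fold. It passed against K78I (1.40, limma adjusted p = 0.00107) and against pBABE (2.01, limma adjusted p = 8.45e-05), and the K78I arrays averaged 0.61 above pBABE with overlap (limma adjusted p = 0.629).

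In A549 CTSS stood at 4.80, 4.69 and 4.86 with LKB1, 4.66, 4.46 and 4.59 with K78I, and 4.40, 4.42 and 4.23 with pBABE, near the low end of the scale. The LKB1 arrays were again the highest, but the difference of 0.32 did not pass (SE 0.17, limma adjusted p = 0.304). The A549 effect minus the H2122 effect was -1.38 (SE 0.25, limma adjusted p = 0.00662). Levels this low, on every A549 array and on the H2122 pBABE arrays and K78I replicate 2, cannot be told from background. These differences, and those of H2122 against each control, may therefore not be the full change in RNA. The 8 leukocyte markers had a mean level of 3.73 to 3.90 with LKB1 in H2122, 3.75 to 3.94 with K78I and 3.91 to 3.94 with pBABE, and PTPRC, which defines leukocytes, was at 2.83 to 3.27 on every H2122 array. CSF1R was the 1 of the 8 that was called, with a log2 difference of 0.60 (limma adjusted p = 0.0126).

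CTSB, a cysteine protease secreted by many tumours, differed between the lines in the same way. In H2122 it stood at 11.43, 11.74 and 11.64 with LKB1, 10.81, 10.54 and 10.57 with K78I, and 10.49 and 10.80 with pBABE. It rose by 0.96 (SE 0.13, limma adjusted p = 0.000312), or 1.94-fold, and no LKB1 array overlapped a control. In A549 it stood at 11.19, 10.88 and 11.03 with LKB1, 10.75, 10.69 and 11.13 with K78I, and 10.92, 10.74 and 10.90 with pBABE. Those groups overlapped, with a difference of 0.18 (SE 0.12, limma adjusted p = 0.459). The A549 effect minus the H2122 effect was -0.78 (SE 0.18, limma adjusted p = 0.0265).

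CTSZ, a carboxypeptidase among the cathepsins, stood at 8.86, 9.09 and 9.09 with LKB1 in H2122, 8.66, 8.47 and 8.38 with K78I, and 8.42 and 8.58 with pBABE. It rose by 0.52 (SE 0.10, limma adjusted p = 0.00518), or 1.43-fold, without overlap. In A549 the levels were 8.80, 8.59 and 8.75 with LKB1, 8.52, 8.60 and 8.77 with K78I, and 8.66, 8.70 and 8.60 with pBABE. The A549 groups overlapped, with a difference of 0.07 (SE 0.10, limma adjusted p = 0.751). The CTSB, CTSS and CTSZ calls in H2122 held in all 17 fits that left out 1 array. CTSZ did not stay called without the 3 arrays with conflicting labels. Its difference was then 0.49, with a single pBABE array left in H2122.

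**Figure D2:**
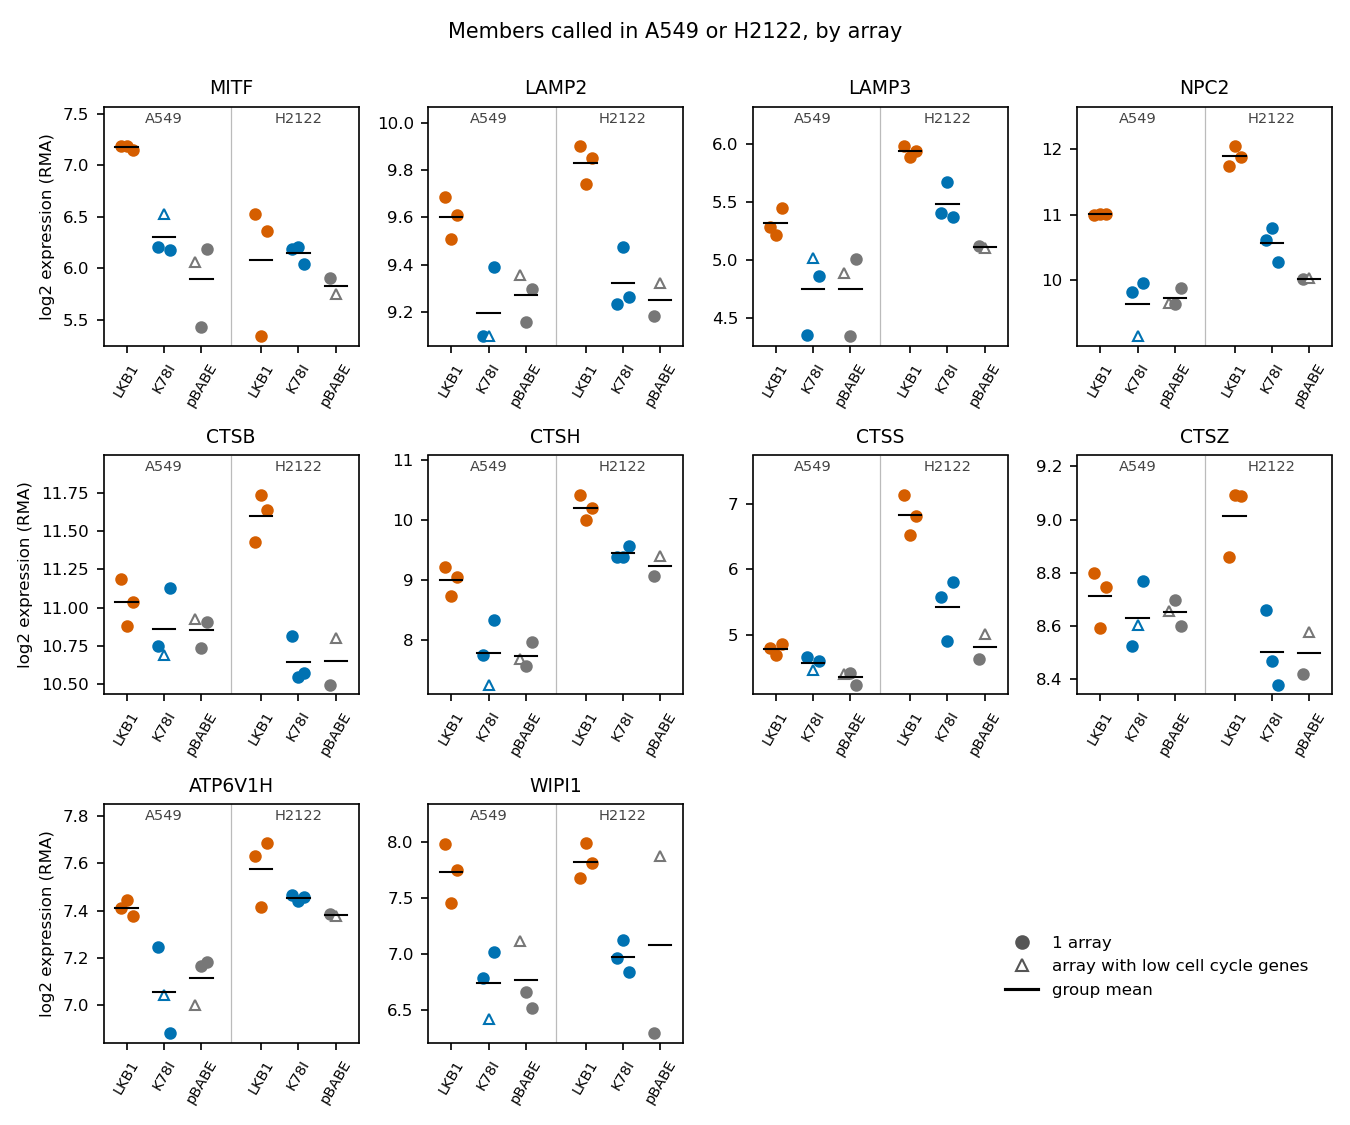
Log2 expression by array of the 10 genes called in A549 or H2122, with LKB1, K78I and pBABE from left to right in each line and bars for group means. Triangles are the 3 arrays with low cell cycle genes. In each panel whose gene was called in a line, the LKB1 arrays of that line lie above its control arrays, as for NPC2 and CTSH in both.

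The other 11 hydrolases and activators were not called in either line. PSAP, the precursor of the saposins that help enzymes reach lipids, had A549 levels of 11.57, 11.58 and 11.50 with LKB1, 11.19, 11.16 and 11.16 with K78I, and 11.32, 11.01 and 11.19 with pBABE. All LKB1 arrays were above all controls, and the difference was 0.38 (SE 0.12, limma adjusted p = 0.0737). In H2122 PSAP stood at 11.73, 11.71 and 11.64 with LKB1, 11.26, 11.52 and 11.24 with K78I, and 11.17 and 11.82 with pBABE. There pBABE replicate 2 was the highest array, and the difference was 0.28 (limma adjusted p = 0.252). Without the 3 arrays with low cell cycle genes PSAP passed in A549, with 0.41 (limma adjusted p = 0.0116). In H2122 the difference was then 0.44, with the lower pBABE array alone in its group.

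Values for the sugar- and glycogen-cleaving enzymes were mixed. GLA, which cuts alpha-linked galactose, had a difference of -0.31 in A549 (limma adjusted p = 0.278). GAA, which breaks down glycogen, had -0.37 in A549 (limma adjusted p = 0.401) and 0.18 in H2122, and without the 3 arrays with low cell cycle genes -0.18 and 0.43 (limma adjusted p = 0.594 and 0.134). GUSB, the beta-glucuronidase, had 0.08 in A549 and 0.23 in H2122 (limma adjusted p = 0.205 in H2122), where its LKB1 arrays were all the highest. Of the remaining cathepsins CTSF had 0.45 in A549 (limma adjusted p = 0.217) and CTSL -0.40 in H2122 (limma adjusted p = 0.142), or -0.23 without the 3 arrays (limma adjusted p = 0.271). CTSD, the main aspartic protease, was at 0.12 in A549 and -0.14 in H2122.

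The proton pump, the v-ATPase that acidifies the lysosome, gave 1 call among 7 genes. ATP6V1H, a regulatory subunit of its cytosolic part, stood at 7.41, 7.44 and 7.38 with LKB1 in A549, 7.25, 7.04 and 6.88 with K78I, and 7.0, 7.17 and 7.18 with pBABE. It rose by 0.32 (SE 0.09, limma adjusted p = 0.0461), or 1.25-fold, and no LKB1 array overlapped a control. That p lay just under the threshold, and the call was lost in 12 of the 17 fits that left out 1 array, 7 of which left out an A549 array (pBABE replicate 1 or 2, K78I replicate 2 or 3, any LKB1 replicate). In these 12 the difference was 0.28 to 0.34 and the limma adjusted p 0.058 to 0.143. In H2122 it stood at 7.63, 7.41 and 7.68 with LKB1, 7.47, 7.44 and 7.46 with K78I, and 7.39 and 7.38 with pBABE, and did not pass (0.16, limma adjusted p = 0.431).

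The other pump genes ranged from -0.24 for ATP6AP1, an accessory protein, to 0.23 for ATP6V1C1 in A549. In H2122 they ranged from -0.14 for ATP6V1C1 to 0.25 for ATP6V1A, the catalytic subunit, whose LKB1 arrays were the highest of the line (limma adjusted p = 0.161). ATP6V0D2, a subunit known from osteoclasts, was at 2.47 to 3.10 on all arrays, where levels cannot be told from background. The class medians were 0.06 in A549 and -0.01 in H2122, close to those over all genes.

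Among the 8 autophagy genes WIPI1 was called, in A549. WIPI1 binds a phosphoinositide on the membrane from which the autophagic vesicle grows. Its A549 levels were 7.98, 7.46 and 7.75 with LKB1, 6.78, 6.42 and 7.02 with K78I, and 7.12, 6.67 and 6.52 with pBABE. Every LKB1 array was above every control, and WIPI1 rose by 0.97 (SE 0.26, limma adjusted p = 0.0298), or 1.96-fold. Leaving out pBABE replicate 2 or 3, LKB1 replicate 1 or 3, or K78I replicate 2 ended the call, with differences of 0.85 to 0.96 and limma adjusted p of 0.0511 to 0.147.

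In H2122 WIPI1 stood at 7.68, 7.99 and 7.81 with LKB1, 6.97, 7.13 and 6.84 with K78I, and 6.29 and 7.87 with pBABE. The pBABE arrays lay on both sides of all the others but 1, since replicate 2 was below LKB1 replicate 2 only. The difference was 0.79 with all arrays (SE 0.27, limma adjusted p = 0.1). It was 1.19 without the 3 arrays with low cell cycle genes (limma adjusted p = 0.000262) and 1.19 without pBABE replicate 2 alone (limma adjusted p = 0.00166), but 0.40 without pBABE replicate 1 alone (limma adjusted p = 0.234). In A549 the difference without the 3 arrays was 0.98 (limma adjusted p = 0.000526).

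ULK1 stood at 8.32, 8.84 and 8.25 with LKB1 in A549, 7.83, 7.26 and 8.07 with K78I, and 7.85, 7.71 and 7.86 with pBABE. Its LKB1 arrays were all the highest, but the difference of 0.71 did not pass (SE 0.27, limma adjusted p = 0.136). In H2122 ULK1 was at 6.89, 7.83 and 7.10 with LKB1, 6.85, 7.21 and 6.82 with K78I, and 6.69 and 8.07 with pBABE (0.11, limma adjusted p = 0.912). The 8.07 is from an array with low cell cycle genes, and without the 3 such arrays the H2122 difference was 0.45 (limma adjusted p = 0.224) and the A549 difference 0.61 (limma adjusted p = 0.0917).

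GABARAPL1 and MAP1LC3B encode small proteins that are attached to the lipid of the autophagic membrane. GABARAPL1 stood at 8.68, 7.80 and 8.34 with LKB1 in A549, 8.46, 10.51 and 9.16 with K78I, and 10.12, 9.15 and 8.29 with pBABE, a difference of -1.01 (SE 0.41, limma adjusted p = 0.153). MAP1LC3B stood at 6.56, 6.60 and 6.49 with LKB1, 6.35, 7.89 and 7.23 with K78I, and 7.52, 6.15 and 6.20 with pBABE, a difference of -0.34 (limma adjusted p = 0.604). Both genes had their highest A549 values on K78I replicate 2 and pBABE replicate 1, the arrays with low cell cycle genes. Without the 3 arrays the differences were -0.49 for GABARAPL1 (limma adjusted p = 0.26) and 0.07 for MAP1LC3B. The part of the low cell cycle genes in these values was not tested.

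The cargo receptor SQSTM1 had a difference of 0.20 in A549 (limma adjusted p = 0.196), with all LKB1 arrays above all controls, and of -0.11 in H2122. ATG7, the enzyme that activates the small conjugated proteins, had -0.12 in A549 (limma adjusted p = 0.512), with all LKB1 arrays below all controls, and -0.20 in H2122. ATG5 and UVRAG lay between -0.06 and 0.01 in both lines.

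**Figure D3:**
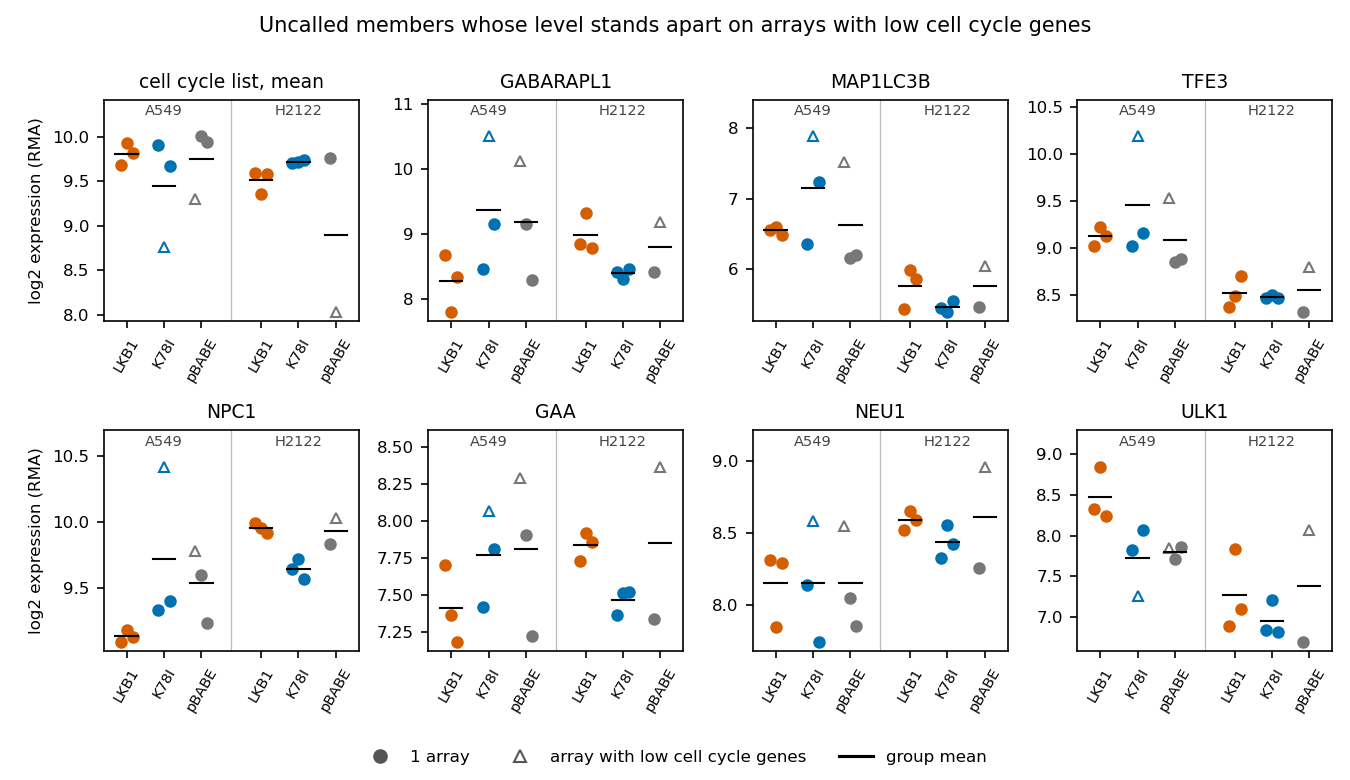
Mean log2 level of 27 cell cycle genes by array, and log2 expression of 7 uncalled genes that were picked for this plot after their values had been seen, with LKB1, K78I and pBABE from left to right in each line. Triangles are the 3 arrays with low cell cycle genes, on which GABARAPL1 reaches 10.51 and 10.12 in A549 and ULK1 reaches 8.07 in H2122, while bars show group means.

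By class, 1 of 3 transcription factors, 3 of 8 membrane and lipid transfer proteins, 1 of 15 hydrolases and activators, 1 of 7 pump genes and 1 of 8 autophagy genes rose in A549. In H2122 the counts were 0, 3, 4, 0 and 0 in the same order, and 0 genes fell in either line. Of all genes 5.49% rose in A549 and 4.99% in H2122. The median log2 difference was 0.39 for the factors in A549, 0.16 for membrane proteins, 0.08 for hydrolases, 0.06 for the pump and -0.03 for autophagy. In H2122 the medians were 0.09, 0.34, 0.19, -0.01 and 0.06. In A549 the call of ATP6V1H was 14.3% of the pump genes and that of WIPI1 12.5% of the autophagy genes, against 8.44% of all genes. The call of CTSH was 6.67% of the hydrolases and activators there. The autophagy median in A549 lay among differences from -1.01 for GABARAPL1 to 0.97 for WIPI1. For 3 of these 8 genes all LKB1 arrays lay above all controls, and for 1 below. Medians over all genes were -0.02 in A549 and -0.04 in H2122. All LKB1 arrays lay above all controls for 12 of the 41 genes in A549, against 8.46% of all genes, and below them for 2, against 6.65%. In H2122 the counts were 9 above, against 8.54% of all genes, and 0 below, against 8.82%.

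Leaving out the 3 arrays with low cell cycle genes moved the background too. In H2122 it left pBABE replicate 1 as the only pBABE array, with the same weight as the 3 K78I arrays together. The H2122 calls given here therefore rest heavily on that array. In A549, 7 of the 41 genes then rose, against 6.3% of all genes, and 2 fell, against 3.93%. ATP6V1H was no longer called (0.29, limma adjusted p = 0.09), and PSAP was added. The 2 that fell were GLA, at -0.44 (limma adjusted p = 0.0124), and MCOLN1, at -0.39 (limma adjusted p = 0.0493). In H2122 10 rose, against 7.72% of all genes, and 0 fell, against 5.34%, with CD63, PSAP and WIPI1 added to the 7 called on all arrays. The other calls stood at 1.17 for MITF, 1.098 for CTSH, 0.37 for LAMP2 and 0.67 for LAMP3 in A549. The class medians were 0.30, 0.23, 0.15, 0.08 and 0.05 in A549 and 0.12, 0.44, 0.24, 0.02 and 0.16 in H2122, in the order used above.

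**Figure D4:**
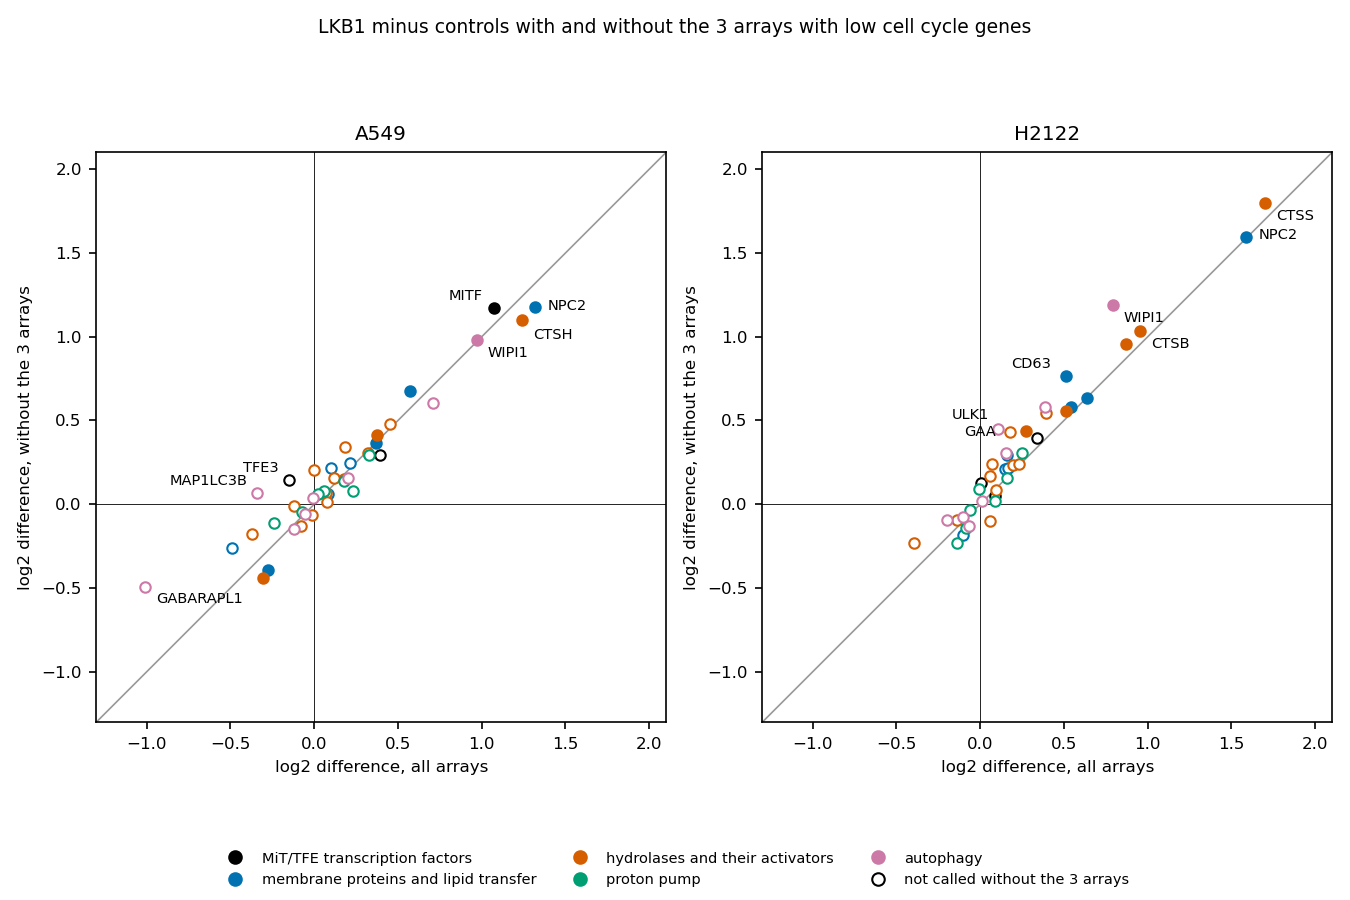
Log2 difference of LKB1 minus controls for the 41 genes with all arrays (horizontal axis) and without the 3 arrays with low cell cycle genes (vertical axis), in A549 (left) and H2122 (right), with the grey line where both are equal. In H2122 NPC2 lies on the line, while TFE3, MAP1LC3B and GABARAPL1 in A549 and CD63 and WIPI1 in H2122 lie above it. Open points were not called without the 3 arrays.

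Leaving out instead the 2 A549 arrays with STK11 at odds with the label left 6 of the 41 genes called in A549. CTSH, LAMP3, MITF and NPC2 rose, against 5.89% of all genes, and GABARAPL1 and NPC1 fell, against 3.9%. LAMP2 (limma adjusted p = 0.0578), WIPI1 (0.83, limma adjusted p = 0.0799) and ATP6V1H (limma adjusted p = 0.0618) were then not called. K78I replicate 2 is also among the 3 with low cell cycle genes.

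The controls were also taken 1 at a time. Against K78I, 2 of the 41 genes rose in A549, CTSH and NPC2, against 3.56% of all genes called higher, and 5 in H2122, against 2.98%. The 5 were CTSB, CTSS, CTSZ, LAMP2 and NPC2. Against pBABE, 3 rose in A549, CTSH, MITF and NPC2, against 3.78% of all genes, and the same 7 as against both controls rose in H2122, against 4.17%. The kinase-dead protein and the empty vector were compared as well. In neither line was any gene called between K78I and pBABE by limma, 0% of all genes. That holds for STK11 too, although in H2122 its K78I levels were far above its pBABE levels. In A549 the arrays with STK11 at odds with the label lie in both of these groups. The absence of calls therefore does not show that the controls are alike. Among the 41 genes 0 passed at an unadjusted p under 0.05 in A549, against 2.63% of all genes, and 4 in H2122, against 7.02%, namely NPC2 (0.54), CTSS (0.61), CTSL (-0.49) and ATG7 (-0.27). Without the 3 arrays with low cell cycle genes these stood at 0.55, 0.80, -0.16 and -0.05. In that setting, which left a single pBABE array in H2122, WIPI1 went from -0.11 to 0.68 and CTSK from 0.32 to 0.62. These comparisons share arrays with those against both controls.

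The effects in the lines were compared by the A549 effect minus the H2122 effect. Of the 41 genes 2 passed, CTSB and CTSS, both lower in A549, against 1.98% of all genes called lower. NPC2, CTSH, LAMP2 and LAMP3, called in both lines, did not pass this test, and neither did MITF, WIPI1, CTSZ and ATP6V1H.

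The promoter windows were set against these calls. Of the 10 genes called in either line 5 had a window in the RefSeq table (MITF, NPC2, CTSH, CTSZ and WIPI1), and 0 of the 5 held TCACGTG. Of the 23 measured but uncalled genes with a window 8 did, the genes whose matches are printed above. The called genes had only 5 windows, and the difference between these counts was not tested. The shorter core CACGTG, which lies within TCACGTG, was in 9 of 29 windows, CD63 being the addition, against 8.89% of tested genes. TCATGTG, another sequence bound by MITF, was in 3 of 29, against 2.18%, namely CD63, CTSA and SCARB2. TGACGTCA, the cyclic AMP response element, was in 1 of 29, GABARAPL1, against 2.67%. All motifs were searched on both strands. A match is only a run of letters, and the lack of one says nothing beyond this window.

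A wider list of 120 other measured genes of the same compartments, named by function, was examined in the same fit. It too was chosen with earlier results of these data known. It held 18 regulators at the lysosome, 19 membrane and sorting proteins, 30 hydrolases and activators, 15 pump subunits and 38 autophagy genes. In A549, 5 of the 120 rose and 5 fell, and in H2122, 8 rose and 1 fell, with median log2 differences of 0.02 in both. The A549 share of 8.33% and the H2122 share of 7.5% were near those of all genes.

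In A549 the strongest fall was that of CTSC, a cathepsin that activates granule proteases. It stood at 9.32, 9.25 and 9.23 with LKB1, 10.52, 10.34 and 10.62 with K78I, and 10.59, 10.53 and 10.53 with pBABE. The gap between LKB1 and control arrays was wide on every array, and CTSC fell by 1.25 (SE 0.10, limma adjusted p = 2.89e-06). In H2122 its difference was 0.18 (limma adjusted p = 0.405). ACP2, a lysosomal acid phosphatase, and LGMN, an asparagine-specific protease, fell by 0.47 and 0.37 (limma adjusted p = 0.0149 and 0.0458). The pump subunits ATP6V0A2 and ATP6V0B fell by 0.44 and 0.35 (limma adjusted p = 0.0205 and 0.0166). The ACP2 and ATP6V0A2 calls were lost without LKB1 replicate 1 or 2, and that of ATP6V0B without LKB1 replicate 1, 2 or 3 (limma adjusted p = 0.0506 to 0.116 over these fits). The LGMN call was lost in 10 of the 17 fits (limma adjusted p = 0.0543 to 0.167), those without any LKB1 replicate, K78I replicate 3 or pBABE replicate 1 or 2 of A549, or LKB1 replicate 1 or 3 or K78I replicate 1 or 2 of H2122.

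IDS, which removes sulfate from heparan and dermatan sulfate, rose in both lines. In A549 it stood at 10.38, 10.27 and 10.37 with LKB1, 9.51, 9.38 and 9.43 with K78I, and 9.34, 9.27 and 9.57 with pBABE, a rise of 0.93 (limma adjusted p = 2.09e-05). In H2122 it stood at 10.17, 10.39 and 10.19 with LKB1, 9.79, 9.99 and 9.78 with K78I, and 9.27 and 9.29 with pBABE, a rise of 0.68 (limma adjusted p = 0.00042). The LKB1 arrays were the highest in each line.

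RRAGC and RRAGD are the GTPases that tether mTORC1 to the lysosome, and both rose in A549. RRAGD stood at 8.03, 7.33 and 7.68 with LKB1, 6.67, 5.77 and 6.68 with K78I, and 6.28, 6.50 and 6.38 with pBABE, a rise of 1.30 (SE 0.22, limma adjusted p = 0.00159). RRAGC stood at 8.64, 8.42 and 8.48 with LKB1, 7.94, 8.08 and 7.94 with K78I, and 7.91, 7.82 and 8.21 with pBABE, a rise of 0.53 (SE 0.10, limma adjusted p = 0.00357). Neither gene overlapped between LKB1 and controls. In H2122 RRAGD differed by -0.01 (limma adjusted p = 0.991) and RRAGC by 0.30 (limma adjusted p = 0.11). RRAGA and RRAGB, their partners, differed in A549 by 0.04 and 0.25 and were not called.

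In H2122 the largest rise was that of LAPTM5, a lysosomal membrane protein known from blood cells. It stood at 9.56, 9.76 and 9.64 with LKB1, 8.07, 6.21 and 6.68 with K78I, and 7.21 and 5.68 with pBABE. The LKB1 arrays were close together and far above the scattered controls, with a rise of 2.94 (SE 0.36, limma adjusted p = 0.000142), or 7.67-fold. In A549 the difference was 0.51 (limma adjusted p = 0.45). The leukocyte marker values given beside CTSS hold here too.

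The other named calls in H2122 were SCPEP1, a serine carboxypeptidase, with 0.78 (limma adjusted p = 0.000149), MANBA, the beta-mannosidase, with 0.66 (limma adjusted p = 0.00285), and PLBD2, with 0.51 (limma adjusted p = 0.0069). OPTN, an autophagy receptor, rose by 0.91 (limma adjusted p = 0.000873). The control levels of TFEC, the remaining MiT/TFE factor, cannot be told from background. TFEC stood at 6.43, 5.17 and 6.16 with LKB1, 4.67, 4.06 and 4.43 with K78I, and 4.66 and 4.32 with pBABE. It rose by 1.48 (SE 0.40, limma adjusted p = 0.037), a call that ended when K78I replicate 2 or 3, pBABE replicate 2 or LKB1 replicate 1 or 3 of H2122 was left out, or pBABE replicate 2 or LKB1 replicate 3 of A549 (1.23 to 1.49, limma adjusted p = 0.0511 to 0.194). CTSV, a cathepsin known from thymus and skin, stood at 6.22, 6.75 and 6.50 with LKB1, 5.93, 6.61 and 5.89 with K78I, and 5.46 and 4.64 with pBABE. It rose by 0.89 (SE 0.25, limma adjusted p = 0.04) although K78I replicate 2 overlapped the LKB1 arrays. That call was lost in 8 of the 17 fits (0.69 to 1.03, limma adjusted p = 0.0552 to 0.182), those without any LKB1 array, K78I replicate 1 or 3 or pBABE replicate 2 of H2122, or pBABE replicate 2 or LKB1 replicate 3 of A549. Among the 30 other hydrolases 25 had a positive difference in H2122, against 42.3% of all genes, with a median of 0.31 and 5 higher calls, against 4.99% of all genes. In A549 17 had a positive difference, against 45.7% of all genes, with a median of 0.06 and 2 higher and 3 lower calls. The mean of these 30 genes against the H2122 line mean overlapped between LKB1 and controls. It was 0.11, 0.30 and 0.14 with LKB1, -0.19, -0.04 and -0.20 with K78I, and -0.29 and 0.17 with pBABE.

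**Figure D5:**
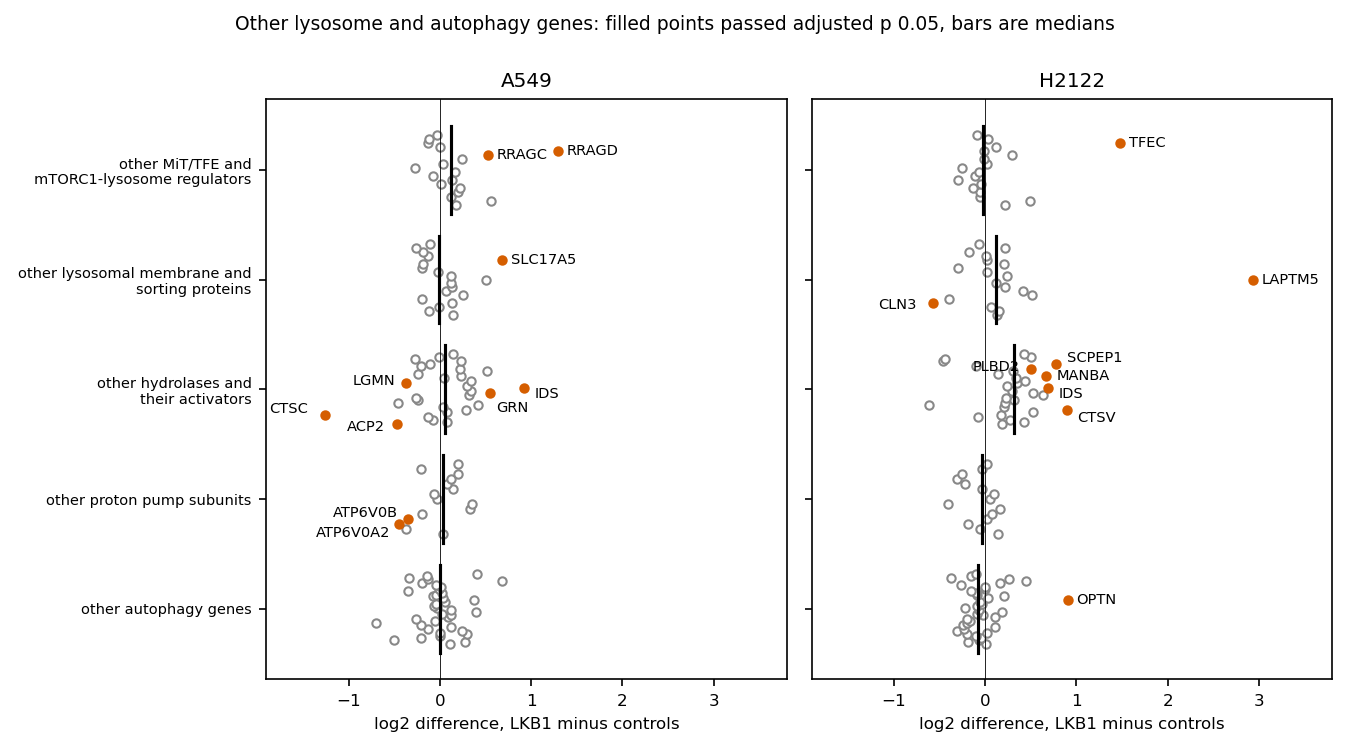
Log2 difference of LKB1 minus controls for 120 other lysosome and autophagy genes by class, in A549 (left) and H2122 (right). Each point is a gene, filled where adjusted p was under 0.05, and bars are class medians. CTSC lies at -1.25 in A549 and LAPTM5 at 2.94 in H2122, and the hydrolases of H2122 have a median of 0.31.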

How the data were processed

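RNA of 17 samples of A549 and H2122 was hybridised to Affymetrix arrays with 1 colour. For each probe set the authors deposited a log2 level, computed by RMA. The submitters' processing notes name Affymetrix Expression Console 1.1. RMA makes the distributions of arrays alike, so a shift of most genes cannot be seen, and no detection calls were used. Array medians over the tested genes were 6.30 to 6.52. The arrays' genome build was not given in the sources used here. The number of arrays limits the precision.

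The table held 33297 probe sets, of which 19181 had 1 symbol, 2055 several and 12061 none in the platform annotation given. Of the identifiers 19143 matched RefSeq and 0 symbols changed. The brightest probe set was kept for each of 895 genes with several, so 17958 genes were tested. Grouping followed the titles, which give line, construct and replicate.

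limma 3.58.1 in R 4.3.3 was fitted over 6 groups, with 11 residual degrees of freedom and a prior of 3.8, tested on simulated data beforehand. The 42 genes and all lists were chosen with earlier results of these data known. Values on every array are given for MITF, NPC2, WIPI1, TFEB, TFE3 and all called genes, and for some others with low p, and of the wider list up to 8 called genes a line are named. The exceptions to this rule were named after their values were seen. Replicate numbers are shared by the groups, and same-numbered arrays of A549 correlated in their deviations from group means by -0.64 to 0.35, and those of H2122 by 0.06 to 0.42, so not every pair was above 0.1 and the numbers were not taken to pair the arrays, although in H2122 all 7 pairs were positive. Promoter windows came from RefSeq (GRCh38.p14). Alternatives were grouping by source name, a replicate block, leaving out arrays, other normalizations and filters, array weights, a fit per line and pooled controls. Figures were drawn with matplotlib 3.10.9.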

Additional observations from a re-analysis of the deposited data

Results flagged for a closer look

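The effects of LKB1 in A549 and H2122 were compared by the test of the difference itself (limma, adjusted over all genes). That test passed for 8 of the 41 genes and the 120 of the wider list. Of all genes 1.98% were called with a lower effect in A549, and the share called higher is not given. The 8 therefore cannot be set against all genes. Both lists were chosen with earlier results of these data known. Each value is the A549 effect minus the H2122 effect on the log2 scale. CTSC stood at -1.43 (SE 0.15, limma adjusted p = 0.000105), CTSS at -1.38 (SE 0.25, limma adjusted p = 0.00662) and SCPEP1 at -0.89 (SE 0.14, limma adjusted p = 0.00199). These 3 passed in all 17 fits that left out 1 array, but CTSS in A549 was at levels that cannot be told from background. LAPTM5 stood at -2.43 (limma adjusted p = 0.0148), CTSB at -0.78 (limma adjusted p = 0.0265), LGMN at -0.71 (limma adjusted p = 0.0182) and ACP2 at -0.65 (limma adjusted p = 0.0354). RRAGD was the 1 gene with a positive value, at 1.31 (SE 0.31, limma adjusted p = 0.0328). LAPTM5 was not called without A549 LKB1 replicate 3 (-2.35, limma adjusted p = 0.0533). LGMN was not called without LKB1 replicate 2 or 3 of A549 or LKB1 replicate 2 of H2122 (limma adjusted p up to 0.0601). CTSB was not called without LKB1 replicate 2 or 3 of either line or K78I replicate 3 of H2122 (limma adjusted p up to 0.0819). ACP2 was not called without any LKB1 array of either line, A549 pBABE replicate 1 or K78I replicate 2 or 3 of H2122 (limma adjusted p up to 0.0944). RRAGD was not called without LKB1 replicate 1 or 3 or pBABE replicate 1 of A549, or any LKB1 array, K78I replicate 1 or 3 or pBABE replicate 2 of H2122 (limma adjusted p up to 0.109).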

How the results depend on the processing

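In A549 the calls of NPC2, MITF and CTSH held under every alternative run, and in H2122 those of NPC2, CTSB and CTSS held under all but grouping by source name, which swaps the construct of 3 arrays. Under that grouping H2122 had 1 gene called in all, 0 of the 41, 0 of the wider list, 0 against K78I, 0 against pBABE, and 0 in the difference between lines, and CTSV stood at -0.14, against 0.89 by title. Without the 3 arrays with conflicting labels H2122 had 422 genes called and 4 of the 41 (3 against K78I, 4 against pBABE, 1 in the difference between lines), with medians of 0.29 for hydrolases and 0.0585 for the pump. Array weights, which count erratic arrays less, gave 3844 genes, 15 of the 41 (10 higher, 5 lower) and 36 of the wider list in A549, 6 of the 41 against K78I and 12 against pBABE. In H2122 they gave 2264 genes, 20 of the wider list, a median of 0.29 for the factors, 14 of the 41 against K78I, 3 against pBABE and 4 in the difference between lines. A fit per line called 875 genes, 4 of the 41 and 5 of the wider list in A549, and median centring 4 of the 41. Without the 3 arrays with low cell cycle genes the medians of factors and autophagy genes in A549 were 0.30 and 0.0517, and 6 of the 41 were called against pBABE. In H2122 that setting called 2345 genes, 26 of the wider list and 10 of the 41 against K78I. Leaving out the A549 arrays whose STK11 level contradicts the label, 7 of the 41 were called against pBABE in A549, among 1803 genes. Apart from these 1803 genes, shares of all genes called against K78I, against pBABE or between lines under these alternatives are not given. Nor is the share under median centring. Those counts of the 41 genes therefore cannot be set against all genes. The causes were not tested.

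Numbers of calls ranged widely when 1 array was left out at a time. In A549 they ran over 715 to 1924 genes, 3 to 8 of the 41 (3 without LKB1 replicate 1 or 3 or pBABE replicate 2) and 4 to 13 of the wider list, and in H2122 over 755 to 1712, 5 to 9 and 6 to 16. Against K78I they were 2 to 5 of the 41 in A549 and 3 to 7 in H2122, against pBABE 3 to 5 and 4 to 8, and in the difference between lines 1 to 2. Shares of all genes for these ranges, and for the replicate block that follows, are not given. Such counts therefore cannot be set against all genes. The class medians in A549 ran over 0.33 to 0.44 for factors, 0.12 to 0.25 for membrane proteins, 0.03 to 0.15 for hydrolases, 0.02 to 0.10 for the pump and -0.05 to -0.01 for autophagy. In H2122 they ran over -0.05 to 0.23, 0.19 to 0.44, 0.15 to 0.25, -0.06 to 0.02 and -0.06 to 0.20. With the replicate number as a block 5 of the 41 were called in A549, where LAMP3 (limma adjusted p = 0.0575) and ATP6V1H (limma adjusted p = 0.0812) were lost, and 7 in H2122, where CTSZ and LAMP3 were lost against pBABE, CTSH was gained against K78I, and in the wider list LGMN was gained and CTSV lost. Of the arrays 3 of 9 in A549 and 6 of 8 in H2122 correlated best with an array of their own number. Probes near the lower end, as for ATP6V0D2, for CTSS in A549 and for the LAMP3 controls there, cannot be told from background.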

Other observations

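Among the markers of other cell types, which were measured only as a check, GPNMB stood apart. GPNMB is a membrane glycoprotein found in melanosomes and in the lysosomes of macrophages. In H2122 its log2 levels were 6.89, 6.56 and 5.43 with LKB1, 4.597, 4.47 and 4.21 with K78I, and 4.58 and 4.13 with pBABE. All LKB1 arrays lay above all controls, and GPNMB rose by 1.90 (SE 0.25, limma adjusted p = 0.00026). The control levels are so low that they cannot be told from background, so the change in RNA may be larger. The other melanocyte markers were not called in H2122, among them TYR, which makes melanin, and MITF had a difference of 0.09 there. The gene was singled out after its values had been seen.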
